A study of Mus musculus with 8 samples.

Results

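The interferon genes of the mouse ileum were compared between Slc51a knockout and wild-type mice. The set held the interferon-induced gene families (Gbp, Irgm, Iigp, Ifit, Ifi and Oas genes and several single genes such as Ubd, Ido1, Mx1, Usp18 and Rsad2) together with the interferon receptors and their signalling genes (Ifnar, Ifngr, Jak1, Jak2, Stat, Irf and Socs genes). Members were chosen by gene symbol and not by their values, although earlier results of these data were known when the choice was made. Each gene was read from its brightest probe set with a single symbol. This gave 82 genes of 17097 measured. Isg15 and Bst2, which the choice also named, were not analysed here.

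The knockout group consisted of 4 male mice in which Slc51a, the alpha subunit of the basolateral bile acid transporter OST, was inactivated, and the wild-type group consisted of 4 male mice with the gene intact. All 8 animals were on a C57BL/6 background, about 2 months old and fasted for 4 h before the ileum was taken. Ileal RNA from each was hybridised to a single Affymetrix 3' IVT array, and values are the deposited log2 signals, so a difference of 1 is a 2-fold change. The labels name no Cre driver or other restriction of the deletion and do not say whether the mice were littermates.

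Interferons are cytokines of antiviral and antimicrobial defence. Type I interferons (alpha and beta) bind the receptor pair IFNAR1 and IFNAR2, and interferon gamma, made mainly by T and NK lymphocytes, binds IFNGR1 and IFNGR2. Both receptors use JAK kinases to activate STAT proteins. Gamma signalling acts mostly through STAT dimers at GAS elements, type I signalling through a complex that holds STAT2 and IRF9 at ISRE elements, and IRF proteins extend both responses while SOCS proteins and USP18 damp them. The effector genes were divided here into a gamma class of 15 and a type I class of 31 by the inducer each family is best known for, although many of these genes answer to both.

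Slc51a itself read 4.67, 4.50, 4.68 and 4.56 in knockout ilea, against 11.36, 11.41, 11.29 and 11.37 in wild-type ilea, a difference of -6.75 (SE 0.05, adjusted p = 4.86e-14, limma with Benjamini-Hochberg adjustment over all 17097 genes, as for every adjusted p given here). Array medians lay between 4.56 and 4.60. The mean of the hybridization control probe sets ranged between 8.13 and 8.53 on knockout arrays and between 8.11 and 8.78 on wild-type arrays, and was lowest on wild type 2, knockout 3 and knockout 4, the 3 low-control arrays. Signals carry no detection calls, so the median of all probe sets, 4.58, serves as a guide to dimness. Averaged over the 8 arrays, 66 of the 82 genes reached it and 16 fell short of it.

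The promoters of 5 members are shown because they span the kinds of element through which interferons act. The 5 were picked from the members with a promoter window, and Gbp8, Gbp10 and Ido1 had none here. Sequences are RefSeq promoter windows of the mouse build GRCm38.p6, 300 bases long, running 250 bases before to 50 bases after the annotated start and written 5′ to 3′ on the gene's strand. Capitals mark matches to a GAS-like motif, TTCNNNGAA, which reads the same on both strands, or to an ISRE-like motif, GAAA followed by any 2 bases and GAAA, searched on both strands (on the other strand TTTC, any 2 bases and TTTC). Where matches to the same motif overlap they form 1 capital run.
Gbp7, chr3:142530086-142530385, plus strand: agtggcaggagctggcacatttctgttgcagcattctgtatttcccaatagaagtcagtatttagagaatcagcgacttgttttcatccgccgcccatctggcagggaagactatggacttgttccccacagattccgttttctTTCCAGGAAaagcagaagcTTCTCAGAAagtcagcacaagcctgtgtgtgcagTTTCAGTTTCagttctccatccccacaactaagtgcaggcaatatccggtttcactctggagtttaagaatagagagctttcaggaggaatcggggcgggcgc
Irgm2, chr11:58214727-58215026, plus strand: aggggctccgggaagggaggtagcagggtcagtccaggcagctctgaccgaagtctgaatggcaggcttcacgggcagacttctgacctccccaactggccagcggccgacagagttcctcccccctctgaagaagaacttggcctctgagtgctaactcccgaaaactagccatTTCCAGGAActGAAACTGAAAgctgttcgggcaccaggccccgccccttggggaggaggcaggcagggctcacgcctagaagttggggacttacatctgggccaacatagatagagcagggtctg
Irf1, chr11:53769764-53770063, plus strand: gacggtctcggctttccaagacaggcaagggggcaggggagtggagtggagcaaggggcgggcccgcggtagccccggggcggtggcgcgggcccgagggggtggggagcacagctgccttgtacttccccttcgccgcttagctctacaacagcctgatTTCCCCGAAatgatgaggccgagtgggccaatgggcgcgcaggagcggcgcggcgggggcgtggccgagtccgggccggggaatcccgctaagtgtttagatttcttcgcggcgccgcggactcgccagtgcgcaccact
Oas1g, chr5:120887564-120887863, minus strand: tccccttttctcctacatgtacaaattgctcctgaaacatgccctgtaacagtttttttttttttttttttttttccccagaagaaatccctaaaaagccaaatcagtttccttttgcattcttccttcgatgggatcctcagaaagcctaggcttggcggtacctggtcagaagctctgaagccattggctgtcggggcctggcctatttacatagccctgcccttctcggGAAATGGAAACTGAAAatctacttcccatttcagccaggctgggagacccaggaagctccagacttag
Ubd, chr17:37193642-37193941, plus strand: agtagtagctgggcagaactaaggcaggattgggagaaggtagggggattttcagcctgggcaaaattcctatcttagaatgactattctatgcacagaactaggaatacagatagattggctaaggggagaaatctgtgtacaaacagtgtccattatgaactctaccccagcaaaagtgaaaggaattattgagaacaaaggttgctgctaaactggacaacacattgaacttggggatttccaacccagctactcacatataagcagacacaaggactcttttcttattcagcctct

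The Gbp7 window held 2 GAS-like matches and 1 ISRE-like match, and the Irgm2 window 1 of each. The shown window of Irf1 held a GAS-like match and no ISRE-like match, while its other annotated window held neither. The Oas1g window held 2 overlapping ISRE-like matches and no GAS-like match. The Ubd window held neither string, which says only that these letters are not in this window. RefSeq windows were matched for 62 of the 82 genes, 75 windows in all. A GAS-like match was present in 15 of these (20%) and an ISRE-like match in 25 (33.3%), against 8.3% and 3.4% of all 32851 promoter windows. Among gamma-class effectors 3 of 11 windows (27.3%) held a GAS-like and 7 (63.6%) an ISRE-like match. Among type I-class effectors 3 of 24 windows (12.5%) held a GAS-like and 12 (50%) an ISRE-like match. These windows covered 10 of 15 gamma-class and 20 of 31 type I-class genes. Windows of Ifit1 and Ifit1bl2 overlap, so the same 2 ISRE-like strings are counted for both genes. The 2 motifs overlapped each other in 1 member window, that of Ifitm3, and in 24 of all windows. A match is a string in the sequence and was not tested as a binding site.

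Across the set, 32 of the 82 genes (39.0%) were lower in knockout ileum and 6 (7.32%) were higher, at an adjusted p under 0.05, and 44 did not pass. Over all 17097 genes, 12.9% were lower and 17.1% higher by the same test, 30% in either direction. The counts of called genes in each class and list below are to be read beside these shares. The median difference of the 82 genes was -0.14 on the log2 scale, beside 0.01 for all genes. For 28 members every knockout array read below every wild-type array and for 5 every knockout array read above, shares to be read beside 12.8% and 18% of all genes. Of the falls, 17 were at least 1.5-fold, which 2.77% of all genes reached, and 8 were at least 2-fold. One of the 6 rises, that of Oas1g, was at least 1.5-fold, against 2.05% of all genes. Brightness bears on these shares: among the 66 members with a mean of 4.58 or more, 29 fell and 6 rose, beside 17.9% and 25.4% of the 10934 genes that bright.

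Transcripts for the interferon receptors and kinases were slightly lower in knockout ileum, 4 of 6 past the test and all 6 with a negative difference. Jak2, the kinase bound to the gamma receptor chain IFNGR2, read 9.07, 9.02, 8.97 and 8.82 in knockout ilea and 9.44, 9.53, 9.42 and 9.45 in wild-type ilea. The lowest wild-type array was above the highest knockout array, and the difference was -0.49 (SE 0.06, adjusted p = 0.000112). Jak1, shared by the type I and gamma receptors, read 8.14, 8.02, 8.09 and 8.03 in knockout and 8.30, 8.33, 8.38 and 8.33 in wild type, a fall of the same kind at -0.27 (SE 0.05, adjusted p = 0.00116). Ifngr1, the ligand-binding chain for interferon gamma, read 9.52, 9.39, 9.47 and 9.41 in knockout and 9.65, 9.68, 9.66 and 9.62 in wild type. The groups again did not overlap, although the difference of -0.20 (SE 0.05, adjusted p = 0.00571) is a 1.15-fold change.

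Ifnar2, a type I receptor chain, read 6.57, 6.67, 6.80 and 6.46 in knockout and 7.04, 6.76, 7.11 and 6.79 in wild type, so that knockout 3 lay above wild type 2 and wild type 4. Its difference of -0.30 (SE 0.09) passed narrowly, with an adjusted p of 0.0307. The call was lost when wild type 1, wild type 3, knockout 1 or knockout 4 was left out, with adjusted p values of 0.0736 to 0.0884. The remaining chains did not pass: Ifnar1 read 6.59, 6.66, 6.57 and 6.73 in knockout and 6.77, 6.70, 6.77 and 6.74 in wild type (95% interval of the difference -0.21 to 0.00), and Ifngr2 read 9.67, 9.64, 9.72 and 9.59 in knockout and 9.68, 9.85, 9.67 and 9.62 in wild type (interval -0.18 to 0.08). In both the groups overlapped. Ifngr1 did not pass when the 3 low-control arrays were left out together (-0.19, adjusted p = 0.0761).

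Among the 6 STAT genes, which carry cytokine signals to the nucleus, 3 were lower and 1 was higher. Stat3, used chiefly by the interleukin 6 and interleukin 10 families, read 8.24, 8.09, 8.09 and 8.17 in knockout and 8.44, 8.50, 8.42 and 8.50 in wild type. Each knockout array was below each wild-type array, and the difference was -0.32 (SE 0.05, adjusted p = 0.000583). Stat4, the interleukin 12 transducer of lymphocytes, read 4.13, 4.06, 3.85 and 3.84 in knockout and 4.45, 4.28, 4.37 and 4.28 in wild type, values under the median probe set in both groups, where RMA compresses differences (difference -0.37, SE 0.08, adjusted p = 0.00315). Stat5b, a transducer of growth hormone and interleukin 2, read 5.43, 5.65, 5.42 and 5.46 in knockout and 5.65, 5.78, 5.70 and 5.76 in wild type (-0.23, SE 0.06, adjusted p = 0.0124), with knockout 2 next to the lowest wild-type array. All 3 had lower values on every knockout array than on any wild-type array.

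The rise was in Stat6, the interleukin 4 and interleukin 13 transducer. It read 6.55, 6.29, 6.36 and 6.60 in knockout and 6.03, 6.15, 6.19 and 6.09 in wild type, without overlap, a difference of 0.33 (SE 0.07, adjusted p = 0.00471). Stat2, a part of the type I complex, read 5.55, 5.38, 5.19 and 5.34 in knockout and 5.46, 5.53, 5.79 and 5.49 in wild type, with knockout 1 inside the wild-type range, and did not pass (interval -0.39 to -0.01, adjusted p = 0.113), although it did with knockout 1 left out (-0.26, adjusted p = 0.0426). Stat5a averaged 4.90 ± 0.15 in knockout and 4.92 ± 0.13 in wild type (SD, n = 4 each, as for every mean ± SD; interval -0.21 to 0.17). The other probe sets of Stat3 and Stat5b made no call, and averaged over all probe sets of a gene the difference of Stat5b was -0.13 (adjusted p = 0.0527) and that of Stat3 was -0.21 (adjusted p = 0.00263). Stat5b also did not pass without the 3 low-control arrays (-0.17, adjusted p = 0.201).

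Of the 8 IRF transcription factors, 4 were lower and 0 higher (0 also at an unadjusted p under 0.05 by limma and 0 in a model without moderation of the variance). Irf1, an early target of interferon gamma that in turn drives many gamma-induced genes, read 8.94, 8.63, 8.53 and 8.85 in knockout and 9.47, 9.34, 9.36 and 9.41 in wild type. The groups were separate, and its difference of -0.66 (SE 0.08, adjusted p = 0.000176) was the most negative of the 8. Irf7, the factor that amplifies type I interferon production, read 7.11, 7.02, 6.86 and 6.84 in knockout and 7.35, 7.20, 7.28 and 7.30 in wild type (-0.32, SE 0.07, adjusted p = 0.00342). Irf2, which competes with IRF1 for its sites, read 7.23, 7.27, 7.16 and 7.17 in knockout and 7.46, 7.41, 7.53 and 7.37 in wild type (-0.24, SE 0.05, adjusted p = 0.00444). Both were lower on every knockout array than on any wild-type array.

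Irf8, a factor of myeloid cells and B cells that is itself gamma-inducible, read 8.55, 8.46, 8.31 and 8.72 in knockout and 8.85, 8.75, 8.65 and 9.05 in wild type. Knockout 4 was above wild type 3, and the difference of -0.32 (SE 0.10, adjusted p = 0.0317) did not pass when wild type 1, wild type 4, knockout 1, knockout 2 or knockout 3 was left out (adjusted p 0.0522 to 0.0883). Its other probe sets made no call, and with their mean the difference was -0.27 (adjusted p = 0.0736). Irf2 and Irf8 did not pass without the 3 low-control arrays (adjusted p = 0.072 and 0.0691). The 4 other factors did not pass: Irf3, the brightest, read 8.05, 8.10, 8.14 and 8.25 in knockout and 8.08, 8.15, 8.16 and 8.14 in wild type (interval -0.11 to 0.12), with overlap. Irf9, the DNA-binding part of the type I complex, differed by -0.06 (interval -0.29 to 0.17), Irf4 by -0.05 (interval -0.16 to 0.06) and Irf5 by 0.02 (interval -0.17 to 0.22). The 3 genes of the IRF2-binding protein family, which entered by their symbols, did not pass either. Irf2bp2 read 8.45, 8.48, 8.44 and 8.63 in knockout and 8.52, 8.33, 8.52 and 8.44 in wild type (difference 0.05), Irf2bpl differed by -0.22 (adjusted p = 0.0866) and Irf2bp1 by 0.00. Irf2bpl passed as lower after quantile or cyclic loess scaling, averaged over its probe sets, with the replicate block, with hybridization control signal in the model and without wild type 1 (adjusted p 0.0247 to 0.0493).

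The SOCS genes encode feedback inhibitors of cytokine receptors. Of 7, 2 were lower and 1 higher. Socs3, the inhibitor of gp130 signalling, read 6.26, 6.02, 6.08 and 5.63 in knockout and 6.33, 6.60, 6.40 and 7.32 in wild type. Every knockout array was below every wild-type array, but wild type 4 stood well above the rest. The difference was -0.66 (SE 0.20, adjusted p = 0.0282), and -0.44 (adjusted p = 0.0309) without wild type 4. The call was lost without wild type 2, knockout 2, knockout 3 or knockout 4 (adjusted p 0.0503 to 0.0754) and with the replicate number as a block (adjusted p = 0.0528). Socs1, the main inhibitor of gamma signalling, was dim: 4.23, 3.89, 3.87 and 4.08 in knockout and 4.27, 4.17, 4.34 and 4.45 in wild type. Knockout 1 lay within the wild-type range, and the difference of -0.29 (SE 0.09, adjusted p = 0.0252) did not pass without wild type 3, wild type 4, knockout 2 or knockout 3 (adjusted p 0.0617 to 0.0736).

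Socs6 read 7.22, 6.97, 7.0 and 7.06 in knockout and 6.72, 6.77, 6.79 and 6.85 in wild type on its brightest probe set, a rise of 0.28 (SE 0.06, adjusted p = 0.00457) with separate groups. Its other probe sets did not pass. Leaving out probe sets whose identifiers mark transcripts in common (suffix a, s or x) removed the brightest one of Socs6, which has suffix a. Socs6 was then read from another probe set with a difference of 0.01 (adjusted p = 0.932). Socs2, the brightest SOCS gene that did not pass, read 9.20, 9.29, 9.30 and 9.39 in knockout and 9.15, 9.49, 9.60 and 9.53 in wild type (interval -0.35 to 0.05), with wild type 1 below and the other wild-type arrays above all knockout arrays. Socs7 differed by -0.12, Socs4 by -0.10 and Socs5 by 0.01, none past the test. Without wild type 1, Socs2 (-0.25, adjusted p = 0.0105) and Socs7 (-0.22, adjusted p = 0.0487) passed. Socs1 and Socs3 did not pass without the 3 low-control arrays (adjusted p = 0.0946 and 0.229).

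**Figure D1:**
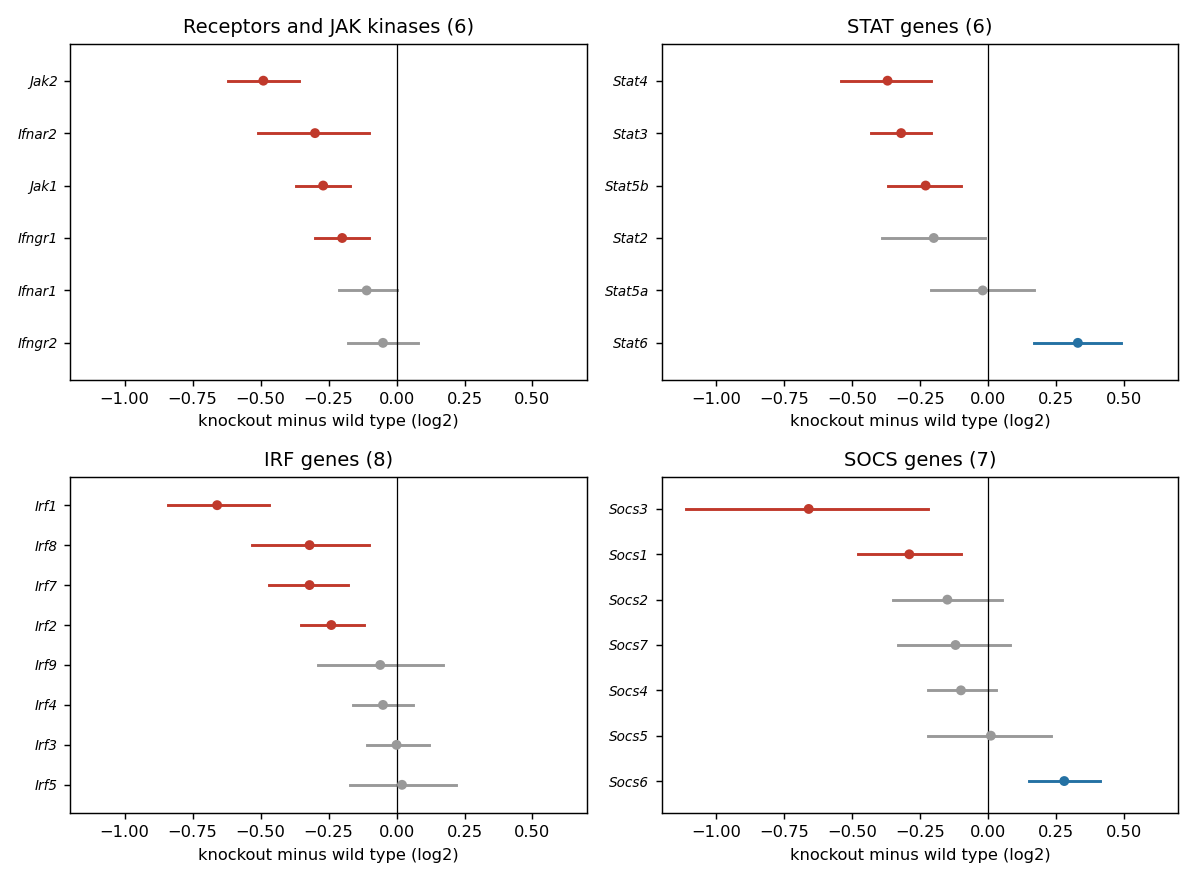
Difference in log2 signal, knockout minus wild type, for the receptors and JAK kinases, STAT, IRF and SOCS genes. Points are fitted differences and lines their 95% intervals from the moderated fit over 4 knockout and 4 wild-type arrays; red marks genes called lower in knockout, blue genes called higher and grey genes that did not pass. The 4 lower IRF genes and the 4 lower receptor and kinase genes lie between -0.66 and -0.20, while Stat6 and Socs6 lie on the other side of 0.

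The gamma-class effectors held the most negative differences of the set, Ubd and Gbp8. Of 15, 12 were lower in knockout ileum (80.0%), 0 were higher and 3 did not pass, with a median difference of -0.97. At an unadjusted p under 0.05 by limma 1 was higher, and in a model without moderation of the variance 10 were lower and 0 higher. Ubd, which encodes the ubiquitin-like modifier FAT10 that marks proteins for the proteasome, read 4.74, 4.08, 3.90 and 5.49 in knockout and 9.38, 8.87, 8.71 and 9.02 in wild type. The groups were far apart, with the knockout mean of 4.55 just under the median probe set, so that the difference of -4.44 (SE 0.29, adjusted p = 3.11e-06), a 21.7-fold change, may be understated by compression near the floor. Ubd varied more between knockout arrays (SD 0.72) than between wild-type arrays (SD 0.29). Its promoter window is the one shown with neither motif.

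The guanylate-binding proteins, large GTPases that attack the vacuoles of intracellular pathogens, fell in 6 of 7 members, with a median of -1.0. On chromosome 5, Gbp8 read 4.48, 4.37, 4.35 and 4.94 in knockout and 7.22, 7.06, 7.48 and 7.37 in wild type, a 6.72-fold fall (difference -2.75, SE 0.13, adjusted p = 3.93e-07) that may also be understated, since the knockout mean of 4.53 is under the median probe set. Gbp10 read 5.40, 4.68, 4.74 and 5.10 in knockout and 6.85, 6.38, 7.04 and 7.18 in wild type, a 3.68-fold fall (-1.88, SE 0.19, adjusted p = 3.21e-05). Neither pair of groups overlapped. Their chromosome 5 relative Gbp4 was read only at 4.55 ± 0.07 in knockout and 4.46 ± 0.08 in wild type, a level near the median probe set, and did not pass (interval -0.03 to 0.21).

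On chromosome 3, Gbp2 read 6.81, 5.53, 5.39 and 5.88 in knockout and 7.52, 7.25, 7.51 and 7.50 in wild type (-1.54, SE 0.25, adjusted p = 0.000738). Knockout 1 stood well above the other knockout arrays, yet below all wild-type arrays. Gbp7, whose promoter window holds both motifs, read 6.82, 6.15, 6.10 and 6.37 in knockout and 7.19, 7.31, 7.42 and 7.54 in wild type (-1.0, SE 0.14, adjusted p = 0.000314). Gbp2b, the gene for GBP1 in mice, read 4.43, 4.20, 3.99 and 4.28 in knockout and 5.44, 4.78, 5.16 and 5.24 in wild type (-0.93, SE 0.13, adjusted p = 0.000284). Gbp3 read 5.85, 5.44, 5.52 and 5.77 in knockout and 6.31, 6.18, 6.51 and 6.52 in wild type (-0.73, SE 0.11, adjusted p = 0.000357). In each of these 4 genes the groups did not overlap. Members of this family are close in sequence, so a probe set may read more than 1 of them.

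The immunity-related GTPases, a second family of vacuole-directed GTPases, fell in 4 of 5 members. Ifi47 (IRGD) read 9.03, 8.60, 8.23 and 8.76 in knockout and 9.67, 9.40, 9.61 and 9.83 in wild type, without overlap (-0.97, SE 0.15, adjusted p = 0.000508). Irgm2, a regulator of the other family members whose window is shown, averaged 6.52 ± 0.42 in knockout and 7.47 ± 0.29 in wild type, also without overlap (-0.94, SE 0.20, adjusted p = 0.00371). Iigp1, an effector that coats pathogen vacuoles, averaged 6.43 ± 0.67 in knockout and 7.41 ± 0.34 in wild type (-0.97, SE 0.28, adjusted p = 0.0239), and Igtp (IRGM3) averaged 7.19 ± 0.74 in knockout and 8.12 ± 0.27 in wild type (-0.94, SE 0.30, adjusted p = 0.0347). In these last genes the groups overlapped, because knockout 1 read 7.34 for Iigp1 and 8.11 for Igtp, above wild type 2. Their calls were marginal. Igtp did not pass without wild type 1, 3 or 4 or knockout 2, 3 or 4 (adjusted p 0.0511 to 0.0902). Iigp1 did not pass without wild type 3 or 4 or knockout 2 or 3 (adjusted p 0.06 to 0.0708). With knockout 1 left out both passed, Igtp at -1.25 (adjusted p = 0.00192) and Iigp1 at -1.27 (adjusted p = 0.0011). Neither passed without the 3 low-control arrays, with hybridization control signal in the model or with a trended, robust prior (adjusted p 0.0995 to 0.139).

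The fifth member, Irgm1, a regulator of the family that is also needed for autophagy, did not pass. It averaged 8.13 ± 0.35 in knockout and 8.14 ± 0.16 in wild type, a difference of -0.01 with a 95% interval of -0.34 to 0.32. Ido1, which opens tryptophan breakdown to kynurenine, averaged 7.50 ± 0.70 in knockout and 8.83 ± 0.17 in wild type without overlap, a 2.51-fold fall (-1.33, SE 0.27, adjusted p = 0.00339). Ifi30, the lysosomal thiol reductase of antigen processing and the brightest effector of the class that did not pass, read 9.72, 9.78, 9.82 and 9.83 in knockout and 9.64, 9.77, 9.66 and 9.62 in wild type. Knockout 1 lay within the wild-type range, and the difference was 0.11 (interval 0.00 to 0.22, adjusted p = 0.116).

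**Figure D2:**
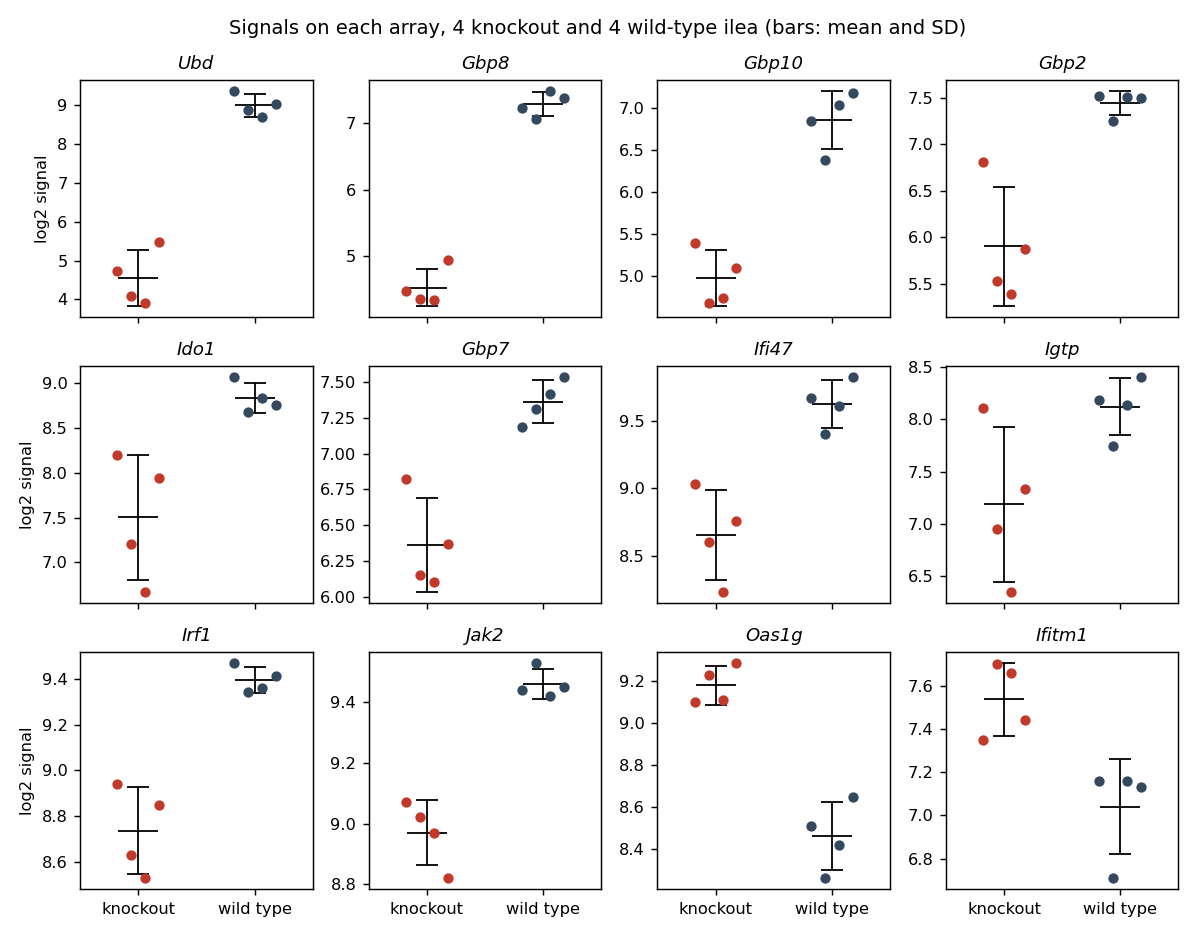
Log2 signal on each array (vertical axes, each with its own range) for 8 gamma-class effectors and for Irf1, Jak2, Oas1g and Ifitm1, with 4 knockout arrays in red left of 4 wild-type arrays in dark blue; bars give mean and SD. Knockout 1, the leftmost red point, is the highest knockout array for Gbp10, Gbp2, Ido1, Gbp7, Ifi47, Igtp, Irf1 and Jak2. All knockout points are below all wild-type points except for Igtp, where they overlap, and for Oas1g and Ifitm1, where they are above.

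Most type I-class effectors did not pass, as held for all genes, of which 30% passed in either direction. Of 31, 7 were lower (22.6%), 2 were higher (6.45%) and 22 did not pass, with a median difference of -0.05 and a range of -1.14 to 0.72. The shares over all genes were 12.9% lower and 17.1% higher. Of these 31 genes, 21 averaged 4.58 or more, and among those 6 were lower (28.6%) and 2 higher (9.52%). Among all genes that bright, 17.9% were lower and 25.4% higher. Of the 7 falls, 3 were at least 1.5-fold, those of Ifi209, Ifit1bl2 and Ifi205.

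The p200 family encodes nuclear DNA sensors of the AIM2-like group, and 3 of its 6 measured members were lower. Ifi209 read 4.69, 4.98, 5.15 and 5.20 in knockout and 5.80, 6.22, 6.24 and 6.31 in wild type (-1.14, SE 0.13, adjusted p = 6.9e-05). Ifi205 read 6.40, 6.65, 6.91 and 6.97 in knockout and 7.34, 7.60, 7.78 and 7.70 in wild type (-0.87, SE 0.13, adjusted p = 0.000417). Both had separate groups, and in both, unlike in most of the gamma class, knockout 1 was the lowest knockout array. Ifi213 read 3.74, 3.62, 3.58 and 3.64 in knockout and 3.77, 4.07, 4.12 and 3.92 in wild type, near the floor of the arrays (-0.32, SE 0.08, adjusted p = 0.00758). It did not pass when averaged over its probe sets (-0.16, adjusted p = 0.0598) or without the 3 low-control arrays (adjusted p = 0.137). The remaining Ifi203, Ifi204 and Ifi202b, also dim, differed by -0.24, -0.14 and 0.11 and did not pass. Ifi203 passed as lower with the replicate number as a block (adjusted p = 0.00886), with a trended, robust prior (adjusted p = 0.0445) and without knockout 3 (adjusted p = 0.0427), and Ifi204 with the trended, robust prior (adjusted p = 0.0404) and without wild type 2 (adjusted p = 0.0427).

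The IFIT proteins bind viral RNA, and of their 5 genes 1 was lower and 1 higher. Ifit1bl2 read 6.53, 5.94, 5.37 and 5.90 in knockout and 7.20, 6.92, 7.34 and 6.60 in wild type, a fall of 1.08 on the log2 scale without overlap (SE 0.22, adjusted p = 0.0032). Ifit3 read 6.92, 6.63, 6.19 and 6.43 in knockout and 6.09, 6.10, 6.13 and 6.21 in wild type, and rose by 0.41 (SE 0.12, adjusted p = 0.0276) although knockout 3 lay below wild type 4. The call of Ifit3 was lost without wild type 1, 2 or 3 or knockout 2 (adjusted p 0.0595 to 0.0681), and that of Ifit1bl2 without the 3 low-control arrays (-0.81, adjusted p = 0.051), where Ifit3 stood at 0.63 (adjusted p = 0.00369).

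Ifit1bl1, the brightest type I-class gene that did not pass, read 11.17, 10.38, 9.67 and 10.76 in knockout and 11.09, 10.64, 10.91 and 10.43 in wild type. Its knockout arrays spanned more than its wild-type arrays on both sides, and the interval of the difference was -0.86 to 0.31. Ifit1 averaged 7.09 ± 0.82 in knockout and 7.59 ± 0.36 in wild type (interval -1.25 to 0.24), and Ifit2 averaged 5.58 ± 0.51 in knockout and 5.09 ± 0.35 in wild type (interval -0.02 to 1.01). In all 5 genes the SD was larger in knockout, with a median of 0.51 in knockout and 0.33 in wild type. Leaving out single knockout arrays changed calls of genes named here for that reason, after their values were seen. Without knockout 1, Ifit1 passed as lower (-0.83, adjusted p = 0.0413), and without knockout 3, Ifit2 (0.71, adjusted p = 0.021) and Usp18 (0.72, adjusted p = 0.0304) passed as higher. Ifit2 also passed as higher without the 3 low-control arrays (0.72, adjusted p = 0.00929) and with hybridization control signal in the model (0.81, adjusted p = 0.00594). Usp18, which strips ISG15 from proteins and blocks IFNAR2, averaged 5.57 ± 0.76 in knockout and 5.16 ± 0.18 in wild type over all arrays (interval -0.25 to 1.06).

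The Oas genes are named for the oligoadenylate synthetases, enzymes that make the messenger that activates RNase L. Of 11 genes, 1 was higher and 0 lower, with a median difference of 0.05 (0 lower also at an unadjusted p under 0.05 by limma and in the model without moderation). Oas1g, whose window holds overlapping ISRE-like matches, read 9.10, 9.23, 9.11 and 9.29 in knockout and 8.51, 8.26, 8.42 and 8.65 in wild type. The lowest knockout array was above the highest wild-type array, and the rise of 0.72 (SE 0.08, adjusted p = 7.08e-05), 1.64-fold, had the highest value of the 82 genes. Oas1g has near-identical relatives in its cluster, so its probe set may read more than 1 of them. The others did not pass: Oasl1 differed by 0.28 (interval -0.05 to 0.60), Oasl2 by -0.19 (interval -0.51 to 0.13), and Oas1b, Oas1c, Oas1d, Oas1e, Oas1f, Oas1h, Oas2 and Oas3 by -0.08 to 0.15. Oas2 passed without the 3 low-control arrays (0.30, adjusted p = 0.0161), and Oas1d without knockout 2 (0.17, adjusted p = 0.048).

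The Ifi27 genes encode small hydrophobic membrane proteins, and 2 of 3 were lower. Ifi27l2b read 8.99, 9.0, 8.91 and 9.21 in knockout and 9.43, 9.35, 9.42 and 9.44 in wild type (-0.38, SE 0.06, adjusted p = 0.000864). Ifi27 read 7.61, 7.78, 7.76 and 7.78 in knockout and 8.0, 7.97, 8.04 and 7.99 in wild type (-0.27, SE 0.05, adjusted p = 0.00201). Neither pair of groups overlapped. Ifi27l2a differed by 0.12 (interval -0.08 to 0.32), and passed as higher only with hybridization control signal in the model (0.24, adjusted p = 0.0225). Ifi35 averaged 8.30 ± 0.16 in knockout and 8.55 ± 0.08 in wild type and passed at an adjusted p of 0.0307, which was lost without wild type 1, wild type 3, knockout 3 or knockout 4 (adjusted p 0.0715 to 0.0846) and without the 3 low-control arrays (-0.14, adjusted p = 0.219). Rsad2, the antiviral viperin, differed by -0.14 (interval -0.67 to 0.39) and Ifi44l, near the floor, by 0.01. Mx1 differed by 0.01 (interval -0.17 to 0.19) and Mx2 by 0.00 (interval -0.13 to 0.12). The RefSeq annotation used lists Mx1, Mx2 and Oas1b as transcribed pseudogenes.

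The IFITM genes, whose products hold viruses in endosomes, matched the choice by symbol and answer to both kinds of interferon. Of 6, 2 were higher and 0 lower, although 2 were lower at an unadjusted p under 0.05 by limma and 0 in the model without moderation. Ifitm1 read 7.35, 7.70, 7.66 and 7.44 in knockout and 7.16, 6.71, 7.16 and 7.13 in wild type (0.50, SE 0.11, adjusted p = 0.00613). Ifitm3 read 9.27, 9.34, 9.45 and 9.51 in knockout and 9.06, 8.86, 9.08 and 9.21 in wild type (0.34, SE 0.08, adjusted p = 0.00624). Every knockout array was above every wild-type array in both. Wild type 2 was lowest in both, and without the 3 low-control arrays, wild type 2 among them, Ifitm3 stood at 0.19 (adjusted p = 0.0901). Ifitm2 read 8.36, 8.38, 8.42 and 8.40 in knockout and 8.37, 8.25, 8.32 and 8.36 in wild type (interval -0.03 to 0.16), with overlap, and the dimmer Ifitm10, Ifitm6 and Ifitm7 differed by -0.03, -0.19 and -0.17 without passing. Ifitm6 passed as lower with the replicate block (adjusted p = 0.025), with the trended, robust prior (adjusted p = 0.0437) and without knockout 1 (adjusted p = 0.0425), and Ifitm7 without knockout 2 (-0.21, adjusted p = 0.0227).

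**Figure D3:**
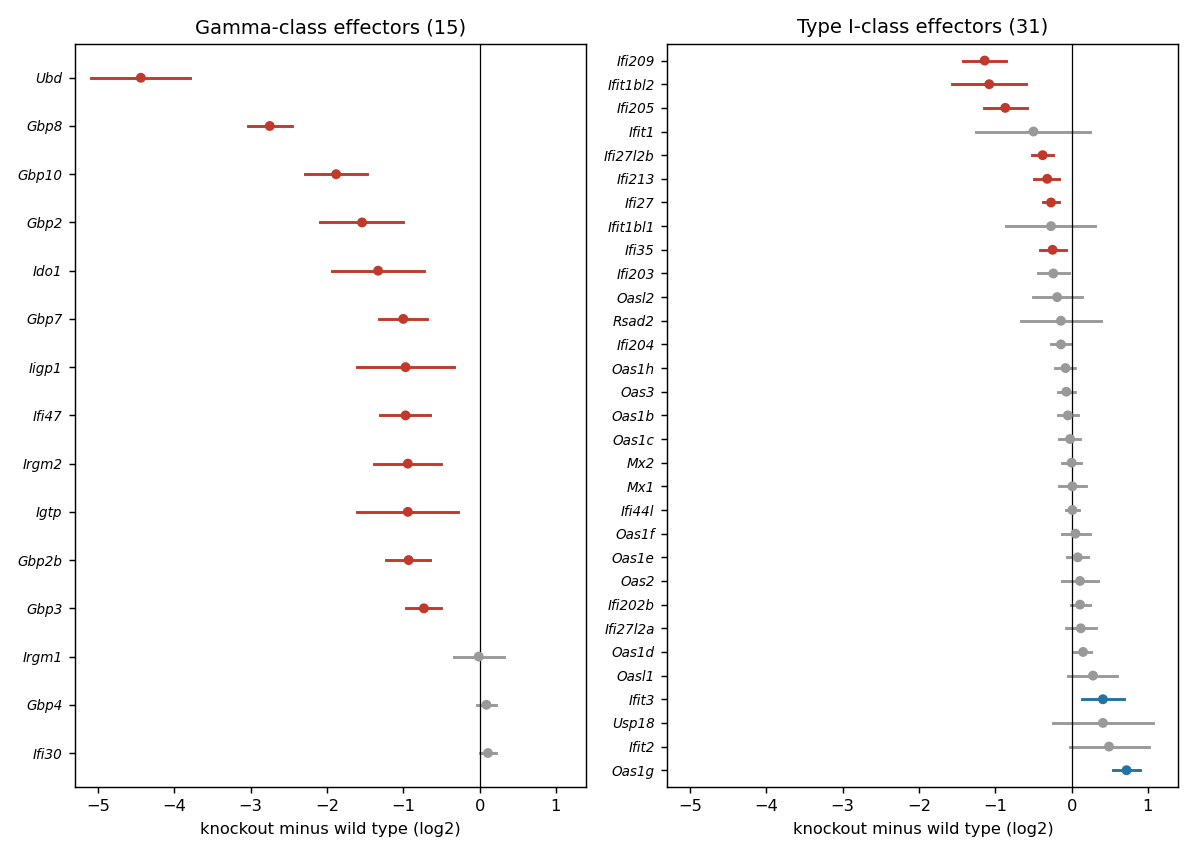
Difference in log2 signal, knockout minus wild type, for the 15 gamma-class and the 31 type I-class effectors. Points are fitted differences and lines their 95% intervals; red marks genes called lower in knockout, blue genes called higher and grey genes that did not pass. All but 3 of the gamma-class genes lie at -0.73 or below, while the type I-class genes spread around 0 between -1.14 and 0.72.

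Set side by side, the gamma class had 12 of 15 genes lower and a median of -0.97, and the type I class 7 of 31 lower and a median of -0.05, beside 12.9% of genes lower and a median of 0.01 over all genes. The difference between the classes was not tested, since genes of a class are not independent replicates. The classes were also set with earlier results of these data known. Seen per array, the mean signal of the gamma class was 6.74, 6.10, 5.97 and 6.51 in knockout and 7.60, 7.33, 7.58 and 7.68 in wild type, with all knockout arrays below all wild-type arrays. The mean of the type I class was 5.95, 5.79, 5.58 and 5.77 in knockout and 5.88, 5.78, 5.96 and 5.87 in wild type, and knockout 1 stood above 3 wild-type arrays. With dim genes left out, the median of the type I class was -0.22 over its 16 remaining genes, and that of the gamma class -0.97 over 13. The gamma median was -0.95 without the 3 low-control arrays and -0.76 when hybridization control signal entered the model.

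The knockout arrays kept much the same order in both classes. Knockout 1 was the highest knockout array for 11 of 15 gamma-class and 18 of 31 type I-class genes, against 5032 of all 17097 genes. Knockout 3 was the lowest for 9 of 15 and 14 of 31, against 4507 of all genes. Among wild-type arrays, wild type 2 was the lowest for 11 of 15 gamma-class and 14 of 31 type I-class genes. The count over all genes was not made for wild-type arrays, so these 2 counts have no share to be read beside. Knockout 3 and wild type 2 are also arrays with low hybridization controls, and the part of that in the order was not tested. The SD was larger in knockout for 11 of 15 gamma-class genes, with a median SD of 0.34 in knockout and 0.18 in wild type, and for 20 of 31 type I-class genes, while it was larger in knockout for 58.3% of all genes.

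**Figure D4:**
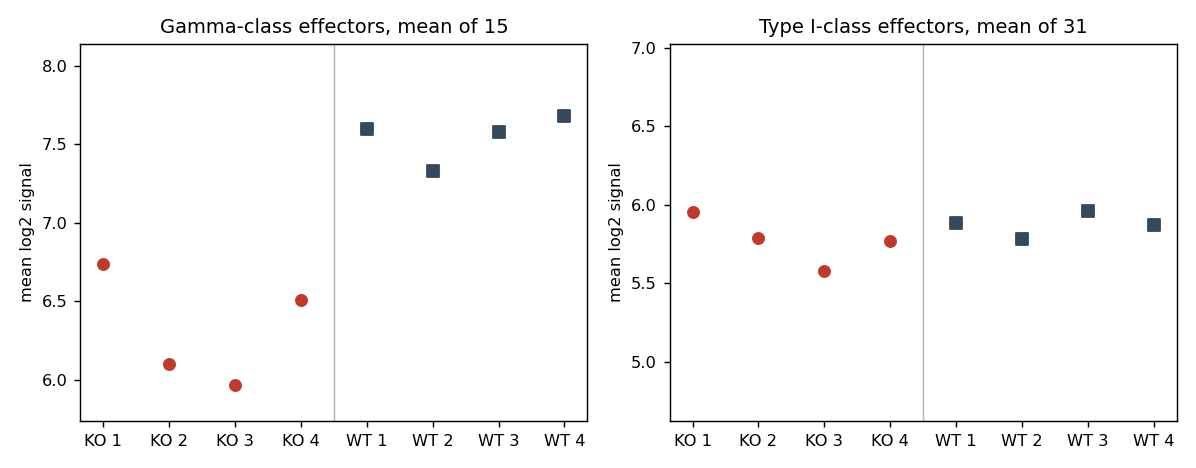
Mean log2 signal of the 15 gamma-class and the 31 type I-class effectors on each of the 4 knockout (KO, red circles) and 4 wild-type (WT, dark squares) arrays. The gamma-class means are 5.97 to 6.74 in knockout and 7.33 to 7.68 in wild type, while the type I-class means overlap.

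Pathway genes outside the set were taken from a list of 40, of which 34 were measured and the other 6 were not analysed here. Of the 34, 13 were lower (38.2%), 2 higher (5.88%) and 19 did not pass, with a median difference of -0.14. The shares over all genes were 12.9% lower and 17.1% higher, with a median of 0.01. Ifng, the gene for interferon gamma, read 3.58, 3.56, 3.44 and 3.82 in knockout and 3.84, 3.61, 3.67 and 3.52 in wild type. All 8 values are under the median probe set and the groups overlapped, so a difference was not detectable at this signal (interval -0.25 to 0.14, adjusted p = 0.692). Tyk2, the type I receptor kinase, differed by 0.09 (adjusted p = 0.249).

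Several interferon-induced genes of the list, which was not divided by inducer, were lower. Nlrc5, the transactivator of MHC class I genes, read 5.37, 4.65, 4.67 and 5.09 in knockout and 6.42, 6.35, 6.43 and 6.82 in wild type (-1.56, SE 0.16, adjusted p = 3.77e-05). Cxcl9, a chemokine that draws CXCR3-bearing T cells, read 6.04, 5.48, 5.59 and 6.13 in knockout and 7.43, 6.92, 7.29 and 7.50 in wild type (-1.47, adjusted p = 5.84e-05). Neither pair of groups overlapped. Its relative Cxcl10 fell by 0.71 (adjusted p = 0.000486), while Cxcl11, the third such chemokine, named after its value was seen, differed by 0.02 and did not pass (adjusted p = 0.909). Ciita, the transactivator of MHC class II genes, fell by 0.79 (adjusted p = 6.28e-05), all on the log2 scale. The immunoproteasome subunits Psmb8 and Psmb9 fell by 1.29 and 0.81, the GTPase gene Tgtp1 by 1.02, Zbp1, a sensor of Z-form nucleic acids, by 0.95 and the mitochondrial nucleotide kinase Cmpk2 by 0.78.

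Smaller falls were seen in Pias1, an inhibitor of activated STAT proteins (0.32), Ddx58, the RNA sensor RIG-I (0.31) and Il10rb, a chain of the interferon lambda receptor (0.20), while Eif2ak2, the RNA-dependent kinase PKR, rose by 0.19. The calls of Il10rb and Eif2ak2 were lost in single-array omissions: Il10rb without wild type 2, 3 or 4 or knockout 1 or 4 (adjusted p 0.072 to 0.105), and Eif2ak2 without wild type 2 or 4 or knockout 1 or 4 (adjusted p 0.0529 to 0.0628). Ddx58 did not pass without the 3 low-control arrays (-0.19, adjusted p = 0.107), nor did Eif2ak2 (adjusted p = 0.121) and Il10rb (adjusted p = 0.211). Tgtp1 did not pass in the model without moderation (adjusted p = 0.0545). Averaged over all probe sets of a gene, Psmb8 differed by -0.86, Psmb9 by -0.50, Cmpk2 by -0.45, Ddx58 by -0.19 and Il10rb by -0.10, the last no longer past the test (adjusted p = 0.214). Zbp1, whose chosen probe set has suffix a, did not pass when probe sets with suffix a, s or x were left out (-0.45, adjusted p = 0.0501).

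**Figure D5:**
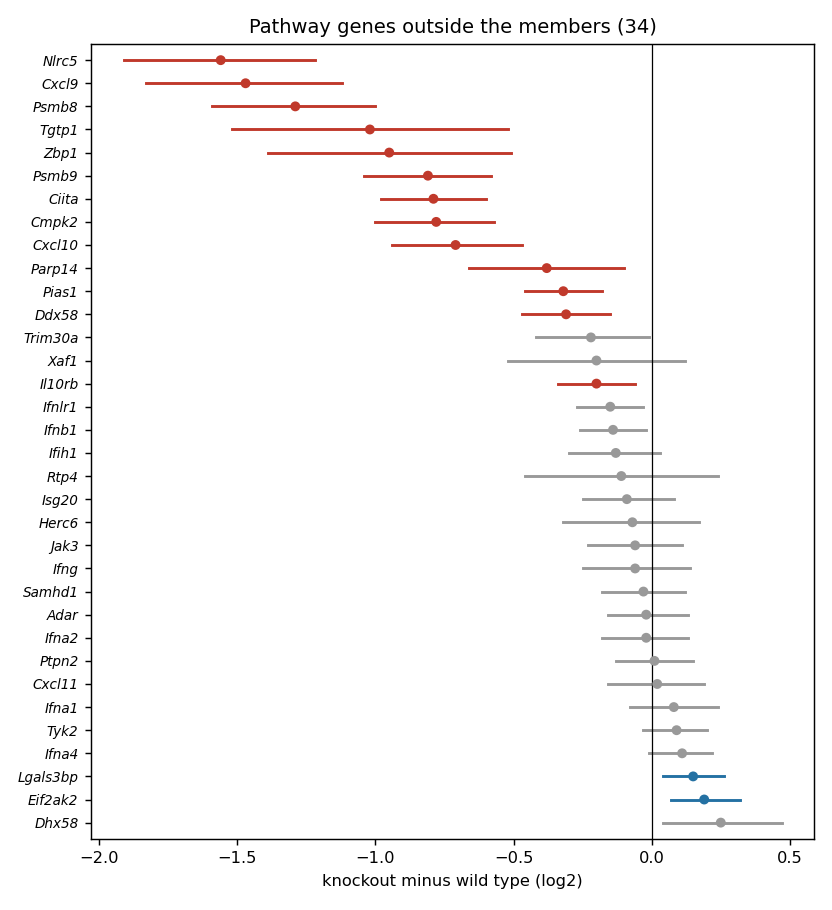
Difference in log2 signal, knockout minus wild type, for the 34 measured pathway genes that are not members. Points are fitted differences and lines their 95% intervals; red marks genes called lower in knockout, blue genes called higher and grey genes that did not pass. Nlrc5, Cxcl9 and Psmb8 have the most negative values, and Ifng lies near 0.

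Markers of several cell types were lower in knockout as well, most of all those of T and NK lymphocytes and of smooth muscle. Of 17 measured T and NK lymphocyte markers, 15 were lower and 0 higher in knockout (0 higher also at an unadjusted p under 0.05 by limma and in the model without moderation), and their mean signal was 5.01 to 5.23 on knockout arrays and 6.05 to 6.19 on wild-type arrays, with 4 markers under the median probe set in both groups. Of 7 B lymphocyte and plasma cell markers 3 were lower (mean signal 6.02 to 6.55 in knockout, 6.69 to 7.05 in wild type), and of 13 macrophage and dendritic cell markers 4 were lower and 1 higher (6.20 to 6.32 in knockout, 6.35 to 6.52 in wild type). All 7 smooth muscle markers were lower (9.02 to 9.25 in knockout, 9.81 to 10.23 in wild type), as were 2 of 5 endothelial markers and 4 of 7 ileal enterocyte markers. The 9 general epithelial markers, at 11.84 to 11.91 in knockout and 11.92 to 11.97 in wild type, had 3 lower and 1 higher and were bright on all 8 arrays. The part of these markers in the results for the interferon genes was not tested. In bulk tissue, fewer cells of a type and less RNA per cell cannot be told apart.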

How the data were processed

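The authors' deposited table holds 1 log2 signal per probe set and array, for which the submitters' processing notes name RMA; the sources used here name no software version, array strip or scan date. Dim signals are compressed by RMA. Per the labels' protocols 250 ng of ileal RNA per sample was labelled. Of 45141 probe sets, 104 controls were set aside; 28898 had 1 symbol, 551 several and 15588 none listed. Symbols were looked up by Entrez identifier in RefSeq of GRCm38.p6 for 28689. The 82 genes had 125 probe sets; 29 genes had more than 1. Of 15 called genes with others, 10 had another called in the same direction, 0 in the opposite direction and 5 none called. For 22 genes the chosen identifier (suffix a, s or x) marks transcripts in common, for 8 of them (s or x) possible cross-binding.

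Knockout was set against wild type by a limma linear model (version 3.58.1, R version 4.3.3; lmFit, eBayes; 2-sided, Benjamini-Hochberg over 17097 genes, threshold 0.05, no filter, no block), and the script was tested on simulated data. The members, classes, lists and tests were chosen with earlier results of these data known. Replicates are numbered as biological in the labels, and 4 arrays per group limit the precision. Values on every array are given for the 6 receptors and kinases, up to 8 called members per class with the smallest adjusted p, the brightest member of each class not called, and, for the wider pathway, Ifng, Nlrc5 and Cxcl9; there, Ifng, Tyk2, Ciita, Nlrc5, Cxcl9, Cxcl10 and Zbp1 are named whatever their values, with up to 8 more of the smallest adjusted p. Alternatives were leaving out dim genes (keeping the 8549 genes at or above the median of the gene means). Scaling by quantiles, medians or cyclic loess was another. Others were the mean of probe sets, probe sets without suffix a, s or x, trended robust eBayes, array weights and a replicate block. Each array, or the 3 with the lowest hybridization control signals, was also left out. The last were these controls as a covariate, an unmoderated model and a 1.5-fold minimum. Figures used matplotlib 3.10.9.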

Additional observations from a re-analysis of the deposited data

Results flagged for a closer look

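On 196 groups of 4 arrays (98 genes, each in knockout and in wild type), the highest or lowest array stood apart from the other 3 by Dixon's criterion for 4 values in 12. Chance gives such a gap in about 1 in 20 groups. In knockout, array 1 was low for Ifi27 (7.61, others 7.76 to 7.78), array 4 was high for Psmb8 (9.17, others 8.47 to 8.56), and array 4 was high for Ifi44l (3.48, others 3.41 to 3.42). In wild type, array 2 was low for Gbp2 (7.25, others 7.5 to 7.52), Ifi27l2a (7.17, others 7.51 to 7.56), Ifi27l2b (9.35, others 9.42 to 9.44), Ifitm1 (6.71, others 7.13 to 7.16), Usp18 (4.89, others 5.23 to 5.29) and Cxcl10 (5.33, others 5.57 to 5.60). Wild type 2 has the lowest hybridization controls of the 8 arrays. Also in wild type, array 4 was high for Nlrc5 (6.82, others 6.35 to 6.43), array 1 was high for Ifitm6 (4.25, others 4.00 to 4.03) and array 3 was high for Ifi44l (3.45, others 3.41 to 3.42). The Ifi44l values lie near the floor of the arrays. With wild type 2 left out, Ifitm1 still passed (0.38, adjusted p = 0.00806 by limma), and Gbp2 passed in every single-array omission (largest adjusted p = 0.00292).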

How the results depend on the processing

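Of the 32 lower genes 20 passed in the same direction in each of the 20 refits that held them, among them Ubd, Gbp8, Gbp10, Gbp2, Gbp7, Ido1, Irf1, Jak1 and Jak2; of the 6 higher genes Ifitm1, Oas1g and Stat6 did (Irf1 and Stat6 were in all but 1 refit). No called member changed sign in these refits, and 8 of 38 calls were lost in the model without moderation. The number of genes called lower was 21 without the 3 low-control arrays (wild type 2, knockout 3 and knockout 4) and 17 with a 1.5-fold minimum, which left 1 higher gene and 825 calls over all genes in place of 5134. Leaving out 1 array at a time gave 27 (without wild type 3) to 33 lower genes, 5 to 8 higher genes and 4366 to 4945 calls over all genes. The gamma-class median was then -1.16 (without knockout 1) to -0.83 (without knockout 3) and the type I-class median -0.07 to 0.00. With all arrays and only the brighter 8549 genes, the type I-class median was -0.22. Cyclic loess gave 2640 lower and 2512 higher calls over all genes, against 2210 and 2924, and kept all 38 calls. With the replicate number as a block, 34 members were lower and 6 higher, the medians were -0.97 and -0.05, and 5190 genes were called in all. The numbers share no stated litter or day, and deviations of same-numbered arrays correlated at 0.22, -0.05, 0.11 and 0.16, below the bar of 0.1 for replicate 2, although arrays 1, 3 and 4 matched their own number best. The numbers were therefore not taken as pairs. The block lost Socs3 and gained Ifi203, Ifitm6 and Irf2bpl. The averages of 16 members lie under the median probe set, where dim signals limit what can be read of them. Strip and scan date are unknown here, and a batch running with genotype was not tested.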
